A study of Mus musculus with 6 samples.

Results

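A set of 10 immediate early and ERK feedback genes was followed in cultured fibroblasts of mouse embryos (MEFs), a mixed population of mesenchymal cells: Fos, Fosl1, Jun, Junb, Egr1, Ier2, Ier3, Ier5, Dusp6 and Spry2. The members were chosen by name, each taking the array's transcript clusters that carry its symbol and no other, and all 10 were found among the 19938 genes named on the array, each with 1 cluster. The study compared 3 Rb1L/L cultures, homozygous for the L allele of the retinoblastoma gene, with 3 Rb1+/+ cultures, which carry the normal allele, and had 1 Affymetrix gene array per culture. Per the labels, all cultures came from E13.5 embryos, were kept in medium with 10% serum up to passage 4 and were proliferating when RNA was taken. The L allele is known to alter the cleft of pRb that binds proteins with an LXCXE motif and to leave the protein's other surfaces in place, so it is not a null allele. The labels do not say whether the 3 cultures of a genotype came from separate embryos, so p-values measure the spread between these cultures, which may in part be technical.

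Immediate early genes are transcribed within minutes of a growth factor or serum signal, without new protein synthesis. The signal runs from receptors through Ras to the kinase ERK, which activates partners of the serum response factor SRF at their promoters. Many of their products are transcription factors that form AP-1 dimers. The ERK feedback genes, here Dusp6 and Spry2, are induced by the same cascade and switch it off again. In fibroblasts the first wave is brief, whereas growing cultures hold a lower steady level of these transcripts.

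Values are log2 expression made by the authors with RMA, and a difference is Rb1L/L minus Rb1+/+ on that scale. As a floor, the 90th percentile of 1194 odorant and pheromone receptor genes was used (log2 5.081), and 15462 genes whose 6-array mean exceeded it were tested. All 10 members exceeded it, with means from 6.41 (Fos) to 10.95 (Jun). Pearson correlations over all clusters were 0.9941 to 0.9959 for arrays of one genotype and 0.9917 to 0.9948 across genotypes. Rb1 itself measured 8.93 ± 0.07 in Rb1L/L and 8.83 ± 0.19 in Rb1+/+ cultures (SD, n = 3 each), which does not check the labels because the L allele is transcribed. The arrays numbered 1 had low Xist (4.79 in Rb1L/L and 5.13 in Rb1+/+) and high Eif2s3y of the Y chromosome (8.47 and 8.36). The other 4 had Xist from 11.44 to 11.61, so each genotype held 1 culture of male type under the same number. In each genotype that culture thus came from another embryo than the cultures numbered 2 and 3. All 10 fibroblast markers lay above the floor, and 2 of them, Col3a1 and Lum, fell by 0.33 and 0.39; in bulk samples fewer cells of a type and less RNA per cell cannot be told apart. All 10 macrophage and blood markers also lay above it, with a summed log2 level of 70.03 to 73.74 in Rb1L/L and 66.88 to 71.61 in Rb1+/+ cultures. Of these, Cd14, Adgre1 and C1qa rose by 0.35, 0.95 and 0.34 and Cx3cr1 fell by 0.34 (limma adjusted p from 0.0178 to 0.0406). The median difference was 0.314 over the 10 macrophage and blood markers (9 above 0) and -0.144 over the 10 fibroblast markers (1 above 0). The part of these cell types in the members' differences was not tested. Of these 6 marker calls, that of Col3a1 held in all 6 fits without 1 array. Pecam1, Epcam and Dcx, markers of endothelial, epithelial and neural cells, lay below the floor. The other 5 markers listed for each of these types lay above it. Of the tested markers of these cells, Kdr (endothelial) rose by 0.58 and Fabp7 and Tubb3 (neural) fell by 0.50 and 0.48 (limma adjusted p = 0.00663, 0.00842 and 0.0309). The calls of Kdr and Fabp7 held in all 6 fits without 1 array and that of Tubb3 in 1, and the median over the tested markers was -0.004 for the 5 endothelial and -0.066 for the 5 neural ones. No tested epithelial or skeletal muscle marker passed (0 higher and 1 lower at an unadjusted p under 0.05).

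Of the 10 members, 4 rose in Rb1L/L cultures (Dusp6, Ier5, Ier2 and Spry2) and none fell, at a threshold of 0.05 on limma p-values adjusted by Benjamini-Hochberg over the 15462 genes. Over all tested genes, 7.1% rose and 5.08% fell by the same rule. The increases were small, from 1.23-fold for Ier5 to 1.33-fold for Spry2. At an unadjusted p under 0.05, 7 members were higher and 0 lower, against 14.4% of all tested genes that were higher. The members were chosen with earlier results of these data known, so these counts are a description. The median log2 difference was 0.254 over the members and -0.021 over all tested genes. With the replicate number as a block, since arrays of the same number deviated together, 6 members rose (Jun and Ier3 in addition) and none fell, against 7.99% of all tested genes that rose.

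**Figure D1:**
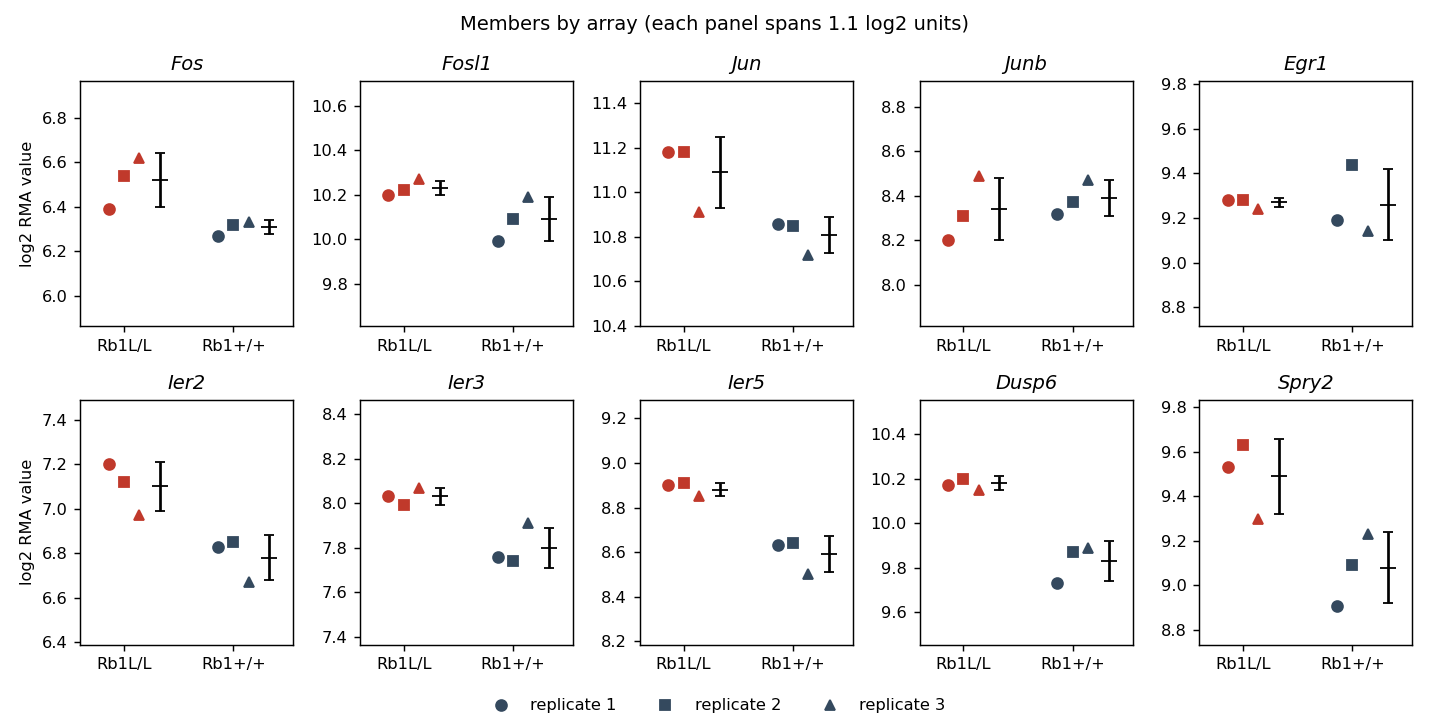
Log2 expression of the 10 members on each array, Rb1L/L left and Rb1+/+ right in each panel, with symbols for the replicate number and black bars for the mean ± SD (n = 3). The Rb1L/L arrays lie above every Rb1+/+ array in 8 panels, and the groups overlap for Junb and Egr1.

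**Figure D2:**
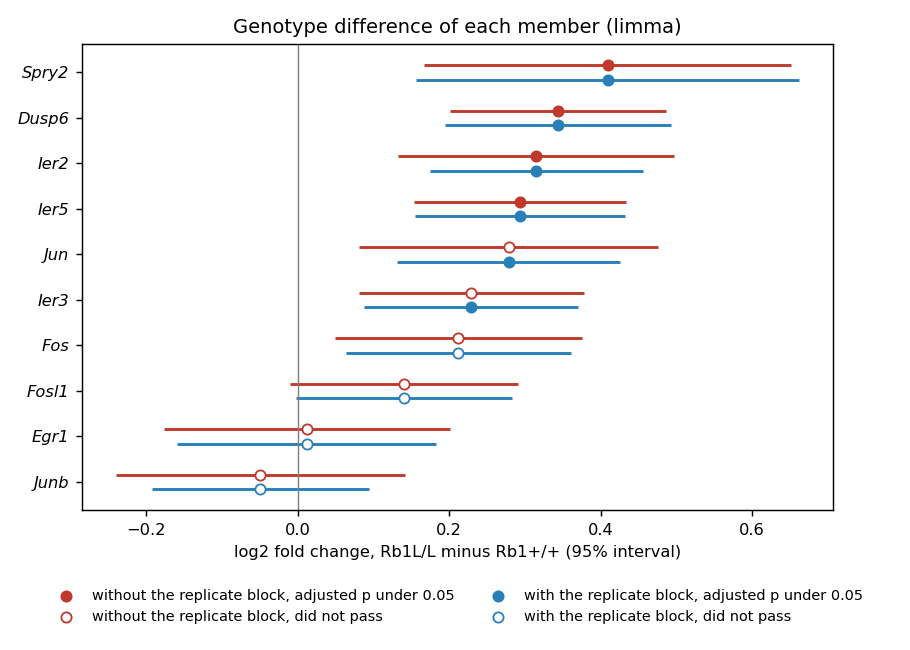
Log2 fold change of each member, Rb1L/L minus Rb1+/+, with its 95% interval from limma, without and with the replicate number as a block; filled points passed the adjusted threshold. Dusp6, Ier2, Ier5 and Spry2 passed in both fits, and Jun and Ier3 passed with the block alone.

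With all 6 arrays, the 2 ERK feedback genes among the members, Spry2 and Dusp6, had the largest differences of the 10. None of 18 other genes listed as ERK feedback genes rose (median -0.066), against 7.1% of all tested genes that rose. That list is broad and also holds Dusp8, a phosphatase of stress-activated kinases. Dusp6 encodes a cytoplasmic phosphatase that removes the activating phosphates from ERK, and its transcript is a usual readout of ERK activity. Its log2 values were 10.17, 10.20 and 10.15 in Rb1L/L cultures, against 9.73, 9.87 and 9.89 in Rb1+/+ cultures. The 3 Rb1L/L arrays lay within a narrow band above every Rb1+/+ array. The difference was 0.34 ± 0.06 (SE), a 1.27-fold increase (95% interval of the log2 difference 0.20 to 0.49, limma adjusted p = 0.0144), and 3.44% of all tested genes had a smaller p. It was positive in all pairs of same-numbered arrays, at 0.44, 0.33 and 0.26 for pairs 1, 2 and 3. The call was lost without Rb1L/L replicate 1 (limma adjusted p = 0.0546, difference 0.34) or Rb1L/L replicate 2 (0.0552, difference 0.33).

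Of the members, 7 had an entry among the RefSeq promoter windows of build GRCm38.p6, each reaching from 250 bases before a gene's start to 50 after it. The windows of Dusp6, Spry2 and Ier5, which rose together, are shown, with that of Fos, the textbook serum response gene, which did not pass. Capitals mark the motif TATAA, the motif CCAAT, the core TGACG of the cAMP response element or CCGGAA, a strict form of the site that ETS factors bind. Shorter forms of that site, such as GGAA, were not searched. Both strands were searched, so that ATTGG is CCAAT read on the other strand, and no matches overlapped. The Dusp6 window (chr10:99262981-99263280, plus strand) held CCAAT 46 bases before the start and none of the other motifs searched.
Dusp6: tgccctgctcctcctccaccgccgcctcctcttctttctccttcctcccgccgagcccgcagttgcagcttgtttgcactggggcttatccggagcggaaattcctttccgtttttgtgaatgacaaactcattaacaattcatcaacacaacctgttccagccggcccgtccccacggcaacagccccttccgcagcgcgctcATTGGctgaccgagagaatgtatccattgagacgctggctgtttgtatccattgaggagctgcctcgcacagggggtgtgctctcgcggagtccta

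Spry2 encodes a Sprouty protein that inhibits signalling from receptor tyrosine kinases to ERK and is itself induced by that signalling. It lies on chromosome 14, as Rb1 does. Its log2 values were 9.53, 9.63 and 9.30 in Rb1L/L cultures, against 8.91, 9.09 and 9.23 in Rb1+/+ cultures. The groups did not overlap, but Rb1L/L replicate 3 and Rb1+/+ replicate 3 lay close together. The difference of 0.41 ± 0.11 (SE; 95% interval 0.17 to 0.65, limma adjusted p = 0.0421) was the largest of the 10 members and had the widest interval. Pair by pair it was 0.62, 0.53 and 0.07, and its within-group SD of 0.163 was the highest among the members. The call was lost without Rb1+/+ replicate 1 or 2 or without Rb1L/L replicate 1 or 2 (limma adjusted p from 0.0818 to 0.129). The window at its start (chr14:105896770-105897069, minus strand) held CCGGAA beginning 33 bases past the start, and no TATAA or CCAAT.
Spry2: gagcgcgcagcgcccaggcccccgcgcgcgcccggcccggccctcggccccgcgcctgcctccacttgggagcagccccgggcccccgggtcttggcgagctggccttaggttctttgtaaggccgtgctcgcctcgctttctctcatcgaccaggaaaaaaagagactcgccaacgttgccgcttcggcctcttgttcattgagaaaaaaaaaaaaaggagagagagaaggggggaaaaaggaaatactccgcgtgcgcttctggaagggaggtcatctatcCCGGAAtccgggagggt

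The Ier genes, named as immediate early response genes, encode short proteins without a classical DNA-binding domain. Ier5 is a nuclear protein tied to the heat shock factor HSF1 and to protein phosphatase 2A. It measured 8.90, 8.91 and 8.85 in Rb1L/L cultures, against 8.63, 8.64 and 8.50 in Rb1+/+ cultures. The lowest Rb1L/L array lay clearly above the highest Rb1+/+ array, and the within-group SD of 0.06 was the smallest of the members. The difference was 0.29 ± 0.06 (SE; 95% interval 0.15 to 0.43, limma adjusted p = 0.0218), with 0.27, 0.26 and 0.35 in the pairs. The call was lost without Rb1+/+ replicate 3 (limma adjusted p = 0.0579) or without the Rb1L/L culture numbered 1 (0.0782) or 2 (0.076), and lay at the threshold without Rb1+/+ replicate 1 (0.04996). Its window (chr1:155099587-155099886, minus strand) held TATAA 26 bases and CCAAT 46 and 108 bases before the start.
Ier5: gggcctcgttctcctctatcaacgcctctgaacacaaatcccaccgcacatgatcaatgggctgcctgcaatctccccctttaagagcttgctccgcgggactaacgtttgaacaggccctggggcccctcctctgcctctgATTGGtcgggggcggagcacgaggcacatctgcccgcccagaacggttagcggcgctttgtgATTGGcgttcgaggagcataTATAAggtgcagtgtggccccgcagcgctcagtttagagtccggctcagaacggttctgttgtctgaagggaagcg

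Ier2, a relative of Ier5 that is among the first transcripts to appear after serum, measured 7.20, 7.12 and 6.97 in Rb1L/L cultures, against 6.83, 6.85 and 6.67 in Rb1+/+ cultures. The groups did not overlap, and replicate 3 was the lowest array of each. The difference was 0.31 ± 0.08 (SE; 95% interval 0.13 to 0.50, limma adjusted p = 0.0394), with 0.37, 0.27 and 0.30 in the pairs. The call was lost when any 1 array other than Rb1L/L replicate 3 was left out (limma adjusted p from 0.0536 to 0.127), and with each array centred on the median of the tested genes (0.061), and over all 18 alternatives the adjusted p ran from 0.0188 to 0.205. Ier3, which limits apoptosis and prolongs ERK signalling by holding off a phosphatase, measured 8.03, 7.99 and 8.07 in Rb1L/L cultures, against 7.76, 7.74 and 7.91 in Rb1+/+ cultures. Its arrays did not overlap either, but the difference of 0.23 ± 0.06 (SE; 95% interval 0.08 to 0.38) missed the threshold (limma adjusted p = 0.0554). With the replicate block Ier3 passed (0.0464; 0.0363 to 0.275 over all 18 alternatives, of which 5 called it).

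The AP-1 genes were not among the 4 called members. Jun, the main DNA-binding partner of Fos proteins, measured 11.18, 11.18 and 10.91 in Rb1L/L cultures, against 10.86, 10.85 and 10.72 in Rb1+/+ cultures. Replicate 3 was the lowest array of both genotypes, and the lowest Rb1L/L array lay just above the highest Rb1+/+ array. The difference of 0.28 ± 0.09 (SE; 95% interval 0.08 to 0.48) did not pass (limma adjusted p = 0.0723). It passed with the replicate block (limma adjusted p = 0.0294, SE 0.06), with trended variances and without Rb1L/L replicate 3 (0.0293, difference 0.37), and the adjusted p ran from 0.0293 to 0.278 over all 18 alternatives. The pairs gave 0.31, 0.34 and 0.19.

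Fos, whose promoter is the classical target of SRF and was an early reported site of action of pRb, measured 6.39, 6.54 and 6.62 in Rb1L/L cultures, against 6.27, 6.32 and 6.33 in Rb1+/+ cultures. The groups did not overlap, but the lowest Rb1L/L array was close to the Rb1+/+ arrays. The difference of 0.21 ± 0.07 (SE; 95% interval 0.05 to 0.38, limma adjusted p = 0.0895, or 0.0676 with the replicate block) did not pass, and none of the 17 alternative fits that tested Fos called it. The Fos window (chr12:85473640-85473939, plus strand) held TATAA 33 bases and TGACG 66 and 129 bases before the start.
Fos: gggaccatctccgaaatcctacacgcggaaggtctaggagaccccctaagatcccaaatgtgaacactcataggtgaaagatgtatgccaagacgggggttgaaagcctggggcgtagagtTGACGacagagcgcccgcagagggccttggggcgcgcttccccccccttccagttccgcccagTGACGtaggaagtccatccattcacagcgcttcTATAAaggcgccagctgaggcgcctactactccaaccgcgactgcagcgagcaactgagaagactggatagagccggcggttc

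Fosl1 encodes Fra-1, the Fos relative whose level follows sustained ERK activity. Its log2 values were 10.20, 10.22 and 10.27 in Rb1L/L cultures, against 9.99, 10.09 and 10.19 in Rb1+/+ cultures. Every Rb1L/L array was above every Rb1+/+ array, the closest by a margin smaller than the spread of the Rb1+/+ arrays. The difference was 0.14 ± 0.07 (SE; 95% interval -0.01 to 0.29, limma adjusted p = 0.201). Junb, an AP-1 subunit that often opposes Jun, measured 8.20, 8.31 and 8.49 in Rb1L/L cultures, against 8.32, 8.37 and 8.47 in Rb1+/+ cultures. The groups lay over each other, with a difference of -0.05 ± 0.08 (SE; 95% interval -0.24 to 0.14, limma adjusted p = 0.741).

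Egr1 encodes a zinc finger transcription factor that SRF and its partners induce in parallel with Fos. It measured 9.28, 9.28 and 9.24 in Rb1L/L cultures, against 9.19, 9.44 and 9.14 in Rb1+/+ cultures. The 3 Rb1L/L arrays sat inside the range of the Rb1+/+ arrays. The difference was 0.01 ± 0.08 (SE; 95% interval -0.18 to 0.20, limma adjusted p = 0.942), and its sign turned in 6 of 18 alternatives, which ran from -0.04 without Rb1+/+ replicate 3 to 0.10 without Rb1+/+ replicate 2, the highest array. The intervals of Egr1 and Junb reach 0.20 and 0.14, so equal levels were not shown.

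In all, the arrays of the genotypes did not overlap for 8 members, with Rb1L/L higher each time, against 16.2% of all tested genes that lay apart in that direction. The within-group SD of the members ran from 0.06 to 0.163 with a median of 0.097, near the median of 0.087 over all tested genes. Within the pairs, 9, 8 and 10 members were higher in the Rb1L/L array of pairs 1, 2 and 3, with median differences of 0.27, 0.26 and 0.17, while the median over all tested genes was -0.02 in each pair. Pair 1 is the male-type pair, which alone allows no test. In the female-type cultures, without both arrays numbered 1, Dusp6, Spry2, Ier5 and Ier2 differed by 0.30, 0.30, 0.31 and 0.29, and none of the 10 members passed (limma adjusted p = 0.127, 0.258, 0.145 and 0.205 for these 4). Over all tested genes, 92 passed in that smaller fit.

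The members did not all order the cultures alike. In both genotypes replicate 3 was the highest array for Fos, Fosl1, Junb and Ier3 and the lowest for Jun, Egr1, Ier2 and Ier5. For Junb it stood 0.15 above the Rb1L/L mean and 0.08 above the Rb1+/+ mean, and for Jun it stood at -0.18 and -0.09 from these means. Other ranks rest on small deviations, such as 0.026 for Fos in Rb1+/+ replicate 3 and -0.026 for Egr1 in Rb1L/L replicate 3. These are below the median within-group SD of 0.087 over all tested genes. The share of all tested genes with either order was not counted. Dusp6 and Spry2 were lowest in replicate 3 among Rb1L/L cultures and highest in it among Rb1+/+ cultures, and their differences in pair 3, 0.26 and 0.07, were the smallest of the pairs. Replicate 3 thus stood at opposite ends for Fos and Jun.

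**Figure D3:**
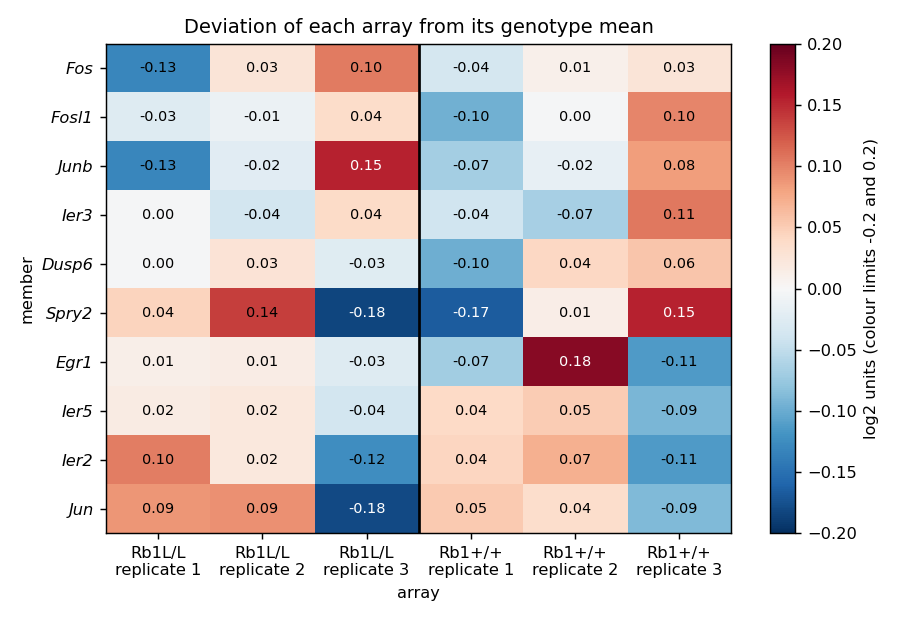
Deviation of each array from the mean of its genotype in log2 units, members in rows and arrays in columns, Rb1L/L left of the line and Rb1+/+ right of it. In both columns of replicate 3 Fos, Fosl1, Junb and Ier3 are above 0 and Jun, Egr1, Ier2 and Ier5 below it.

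The annotated gene spans of the members in build GRCm38.p6 ran from 1199 bases (Ier3) to 8241 (Fosl1) with a median of 3327, against a median of 21902 over 14647 tested protein-coding genes. Among the 7 windows with an entry (Fos, Jun, Junb, Ier3, Ier5, Dusp6 and Spry2), 4 held TATAA, which 24.9% of the 32851 windows of the same length held, and 5 held CCAAT (37.4% of all windows). The core TGACG was in 2 (20.8%) and the strict ETS form CCGGAA in 1 (14.9%). No motif searched was in all 7. The CArG box bound by SRF (1.63% of windows), TGANTCA, the AP-1 site (7.81%), and TTTNGCGC, an E2F site (1.38%), matched none of the 7, which says only that these letters are not in this stretch. No entry was used for Fosl1, Egr1 and Ier2.

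Other genes of the pathway were counted in the same fit. Across 8 lists with 135 genes besides the members, chosen with earlier results of these data known, 124 were tested, 7 rose (5.65%) and 4 fell (3.23%), at the same limma threshold. Both shares lay below those of all tested genes, and the median difference was -0.003.

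**Figure D4:**
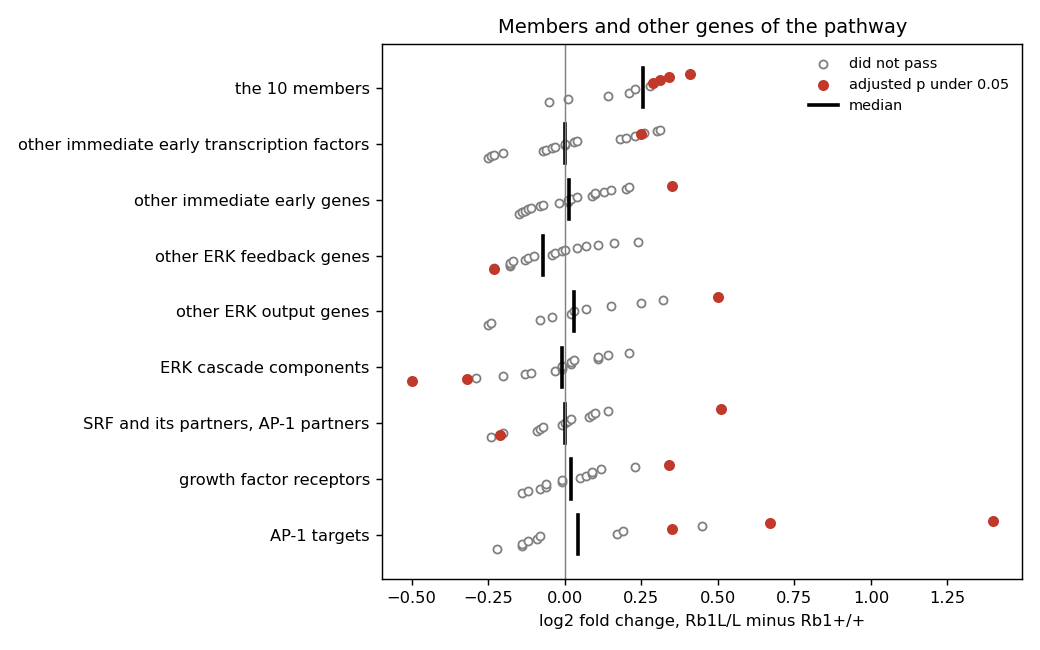
Log2 fold change, Rb1L/L minus Rb1+/+, of every tested gene in the 10 members and in 8 further lists, with filled points for genes past the adjusted threshold and bars for list medians. The median is 0.254 for the members and lies between -0.066 and 0.042 for the other lists, whose genes spread to both sides of 0.

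Of 19 other immediate early transcription factors, 1 rose and none fell (median 0.004; 5 higher and 2 lower at an unadjusted p under 0.05). Csrnp1, a nuclear protein first described as induced by axin, rose by 0.25 ± 0.06 (SE, limma adjusted p = 0.0423), with 9.35, 9.41 and 9.27 in Rb1L/L cultures, against 9.11, 9.16 and 9.03 in Rb1+/+ cultures. This call was lost in each of the 6 fits without 1 array. Of 20 further immediate early genes, 1 rose and none fell (median 0.014; 2 and 1 unadjusted). Plaur, the urokinase receptor and an AP-1 target, measured 10.78, 10.76 and 10.76 in Rb1L/L cultures, against 10.41, 10.40 and 10.45 in Rb1+/+ cultures. The arrays of a genotype almost coincided, and the difference of 0.35 ± 0.05 (SE, limma adjusted p = 0.00748) passed in all 6 fits without 1 array.

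Of the 18 other genes listed as ERK feedback genes, among them Dusp phosphatases and Spry and Spred inhibitors, none rose and 1 fell. Their median was -0.066, with 0 higher and 3 lower unadjusted. Dusp8, a phosphatase of stress-activated kinases, fell by 0.23 (SE 0.06, limma adjusted p = 0.0344) on its brighter cluster, but its second cluster differed by 0.04 and the mean of both did not pass (adjusted p = 0.284, the highest of 18 alternatives that began at 0.0236). It also missed the threshold in each of the 6 fits without 1 array. Of the 18 genes, 5 differed by more than 0, at most by 0.24 for Spry1 (limma adjusted p = 0.197). Spry4 and Dusp4, which also report ERK activity, differed by 0.04 and -0.04 (limma adjusted p = 0.796 and 0.833). Spry1, Spry4 and Dusp4 were named after their values were seen. Of 11 tested ERK output genes, 1 rose and none fell (median 0.028; 3 and 2 unadjusted). Etv4, an ETS factor that ERK signalling induces, measured 8.44, 8.60 and 8.62 in Rb1L/L cultures, against 8.03, 8.07 and 8.07 in Rb1+/+ cultures. It rose by 0.50 ± 0.07 (SE, limma adjusted p = 0.00492), and the call held in all 6 fits without 1 array. With the replicate block Lif also rose and Etv1 and Phlda1 fell in this list (limma adjusted p = 0.0291, 0.0474 and 0.0382, against 0.141, 0.072 and 0.111 without it; named after their values were seen).

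Within the cascade itself, 2 of 17 tested genes fell and none rose (median -0.009; 2 higher and 4 lower unadjusted). Both encode the Son of sevenless exchange factors that load Ras with GTP. Sos1 measured 8.60, 8.59 and 8.72 in Rb1L/L cultures, against 9.14, 9.19 and 9.08 in Rb1+/+ cultures. The groups lay far apart, and Sos1 fell by 0.50 (SE 0.06, limma adjusted p = 0.00449). Sos2 measured 8.57, 8.57 and 8.62 in Rb1L/L cultures, against 8.90, 8.89 and 8.93 in Rb1+/+ cultures, and fell by 0.32 (SE 0.05, limma adjusted p = 0.0108). Both calls held in all 6 fits without 1 array. With the replicate block Braf, a kinase between Ras and ERK, fell as well (limma adjusted p = 0.0274; 0.0274 to 0.228 over 18 alternatives; named after its value was seen).

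Among 15 tested partners of SRF and AP-1, 1 rose and 1 fell (median 0.00). Rps6ka5, which encodes the kinase MSK1 that acts on chromatin at immediate early genes downstream of ERK and p38, rose by 0.51 ± 0.09 (SE, limma adjusted p = 0.0153). It measured 7.23, 7.20 and 7.07 in Rb1L/L cultures, against 6.54, 6.57 and 6.86 in Rb1+/+ cultures, and the call was lost without Rb1+/+ replicate 1 (limma adjusted p = 0.0526) or without the Rb1L/L culture numbered 1 (0.058) or 2 (0.0545). Mrtfb, a coactivator of SRF, fell by 0.21 (SE 0.06, limma adjusted p = 0.0492, or 0.054 with the replicate block; 0.0291 to 0.241 over 18 alternatives), and missed the threshold in each of the 6 fits without 1 array. Its other clusters differed in the same direction, by -0.35 and -0.24.

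Of 14 growth factor receptors, Met, the receptor of hepatocyte growth factor, rose by 0.34 ± 0.08 (SE, limma adjusted p = 0.0321) and none fell (median 0.018). The call held without Rb1+/+ replicate 2 (limma adjusted p = 0.0496) or Rb1+/+ replicate 3 (0.0499) and was lost without any other array (0.0513 to 0.105). Of 12 tested AP-1 targets, 3 rose and none fell (median 0.042; 5 and 0 unadjusted). Besides Plaur, which is in both lists, these were matrix-degrading enzymes. Mmp3 measured 9.46, 9.52 and 9.85 in Rb1L/L cultures, against 7.70, 8.18 and 8.74 in Rb1+/+ cultures, and rose by 1.40 ± 0.23 (SE, limma adjusted p = 0.0106). Mmp9 measured 9.23, 9.95 and 9.66 in Rb1L/L cultures, against 9.12, 9.01 and 8.69 in Rb1+/+ cultures, and rose by 0.67 ± 0.18 (SE, limma adjusted p = 0.0452), a call that held without Rb1L/L replicate 1 (0.0239) and was lost without any other array (0.0762 to 0.122). Il6 lay below the floor and was not tested. Mmp3 was highest in replicate 3 of both genotypes, as Fos, Fosl1, Junb and Ier3 were, whereas Mmp9 was not and Jun was lowest in it.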

How the data were processed

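Total RNA of the 6 MEF cultures was labelled with biotin using the Affymetrix WT PLUS kit, per the labels' protocols. The deposited log2 values were made by the authors with RMA, and Partek is also named, per the submitters' processing notes (no versions given). RMA corrects background, equalises the distributions of the arrays and combines probes per cluster, so folds of dim genes are compressed and shifts common to most genes are removed. With 3 arrays a group, their number sets the precision.

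Of 35556 clusters, 21789 carried 1 symbol, 1621 several and 12146 none in the platform annotation, and 21698 matched RefSeq genes (GRCm38.p6) by gene ID. The brightest cluster stood for each of 999 genes with several. limma 3.58.1 (R 4.3.3; lmFit and eBayes, no block) was run on 15462 genes and checked on simulated data. The replicate numbers were taken as a pairing: deviations from the group means correlated at r = 0.30, 0.24 and 0.30 for the numbers 1, 2 and 3 (0.12, 0.20 and 0.26 leaving out both sex chromosomes), and the design names pairs of MEFs. Members and lists were chosen with earlier results of these data known. Named genes were the members, Rb1, Xist, Eif2s3y and, per list, up to 4 called genes with the smallest p. Spry1, Spry4, Dusp4, Lif, Etv1, Phlda1, Braf and Il6 were named after their values were seen. Alternatives covered the block, scaling, filters, moderation, array weights, clusters and left-out arrays.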

Additional observations from a re-analysis of the deposited data

How the results depend on the processing

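The 4 calls among the members depended on which arrays were in the fit. Between 3 and 6 members passed, and none fell, with the replicate block (6), median centring over all clusters (5) or over the tested genes (3, chosen after seeing the data), quantile normalization (4), no filter (4), a stricter filter (5), trended variances (5), array weights (5) and the mean of a gene's clusters (4). The calls over all genes moved as well, from 1601 of 19938 with no filter to 2232 with the replicate block. They were 2174 of 11296 with the stricter filter and 2197 with trended variances, against 1883 of 15462 in the main fit. Leaving out 1 array gave 0 to 5 members: 0 when Rb1L/L replicate 1 or 2 was left out, 2 for Rb1+/+ replicate 1 or 2, 3 for Rb1+/+ replicate 3 and 5 for Rb1L/L replicate 3. Leaving out both arrays numbered 1, 2 or 3 gave 0, 0 and 1. For all tested genes the count was 622 to 1441 without 1 array and 92, 467 and 460 without both arrays of a number, against 1883 with all. For the other lists together it was 5 to 9 without 1 array and 0, 2 and 7 without both arrays of a number, against 11. The cause was not tested, and these fits also hold fewer arrays. The split of all calls was 1098 higher and 785 lower, 1259 and 597 after median centring over all clusters, and 883 and 1067 after centring over the tested genes. Across the 18 alternatives the log2 difference ran from 0.29 to 0.38 for Dusp6, 0.30 to 0.58 for Spry2, 0.25 to 0.32 for Ier5 and 0.26 to 0.38 for Ier2, and the adjusted p (0.00848 to 0.127, 0.0283 to 0.258, 0.016 to 0.145 and 0.0188 to 0.205) passed in 13, 12, 12 and 9 of them. None of the called members and pathway genes named in the text changed direction under an alternative. With the replicate block 6 members passed, against 4 without it; among the calls named, it ended that of Mrtfb alone.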
